A study of Mus musculus with 15 samples.

Results

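Sgk2, Nat8, Gnai1, Agxt, Clic3, Amer2, Steap2 and Serinc2 are 8 of the 35275 genes in a count table of mouse liver messenger RNA. They were selected on their own levels in these libraries, because their change under 16-h fasting was absent or turned round under every-other-day fasting. Their group differences are therefore given below as a description, and the counts of those past a threshold follow from the choice and support nothing. The libraries came from the left lateral liver lobe of C57BL/6 mice that entered a feeding regimen at 3 months of age and were 6 months old after 3 months on it. In EOD the mice fasted for 24 h every other day, in IF16 they fasted for 16 h, and in AL they ate ad libitum, with 5 libraries in each group. The labels give neither the hour of collection nor the time since the last meal. Nor do they tie the libraries to separate mice, so the spreads and p-values below measure these libraries and may be partly technical. All 3 groups share strain and tissue, and no other treatment is labelled.

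The liver answers fasting with hormonal signals, chiefly low insulin and high glucagon and glucocorticoids, which alter kinase cascades, cyclic AMP signalling and the enzymes that use amino acids. Sgk2 is a serine/threonine kinase of the SGK family, relatives of AKT that PDK1 activates downstream of phosphoinositide 3-kinase. Gnai1 is an inhibitory G protein alpha subunit that restrains adenylyl cyclase, the enzyme that makes cyclic AMP. Agxt encodes alanine-glyoxylate aminotransferase, which turns glyoxylate into glycine, and in humans its loss causes an oxalate disease. Nat8 belongs to an endoplasmic reticulum family of N-acetyltransferases that includes an enzyme acetylating cysteine conjugates left over from glutathione. Clic3 is a member of the chloride intracellular channel family, and Amer2 is a membrane-bound partner of APC that damps Wnt signalling. Steap2 is a metalloreductase for iron and copper, and Serinc2 belongs to the serine incorporator family of membrane proteins.

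Library totals ran from 28129883 to 38147534 counts, so that 3 counts corresponded to 0.0780 to 0.107 CPM (read counts divided by library size after TMM adjustment). Albumin and 5 other hepatocyte transcripts summed to 84457 to 112951 CPM in EOD, 102077 to 131270 CPM in IF16 and 83756 to 104287 CPM in AL, which fits the liver label. AL replicates 4 and 5 stood apart by their acute phase transcripts, whose summed level reached 30746 CPM in AL, against at most 5049 CPM in EOD and 5452 CPM in IF16. Their 4 neutrophil markers summed to 26.1 and 25.2 CPM, against at most 3.58 CPM in EOD and 1.71 CPM in IF16. Nearly all of this was S100a8 and S100a9, as Ly6g and Mpo had at most 7 counts a library. The 4 adipocyte markers summed to 10.8, 7.49 and 11.2 CPM in AL replicates 1 to 3. Their sum was at most 1.42 CPM in EOD, 1.40 CPM in IF16 and 0.979 CPM in AL replicates 4 and 5. In AL replicates 1 to 3, Cfd alone gave 8.64, 7.49 and 7.31 CPM, and in AL replicate 2 Adipoq, Plin1 and Lep had 0 counts. The 6 sinusoidal endothelial markers summed to 137 to 168 CPM in EOD and 132 to 151 CPM in IF16, above the 63.1 to 109 CPM in AL. The 6 stellate cell markers summed to 201 to 276 CPM in EOD, 147 to 200 CPM in IF16 and 114 to 200 CPM in AL. Most of this was Dcn, at 122 to 189 CPM in EOD and 67.3 to 111 CPM in AL. Col1a1 and Col3a1 went the other way, at 2.31 to 3.94 CPM and 8.14 to 18.4 CPM in EOD. In AL replicates 1 to 3 they stood at 7.64 to 8.12 CPM and 19.6 to 20.7 CPM, while AL replicates 4 and 5 lay inside the EOD ranges. Mitochondrially encoded transcripts took 5.34% to 6.83% of counts in EOD replicates 1 to 4 and 10.1% in EOD replicate 5. They took 8.98% to 11.5% in IF16 and 10.01% to 15.1% in AL. The part of these differences in the values below was not tested, and in bulk liver fewer cells of a type and less RNA per cell cannot be told apart.

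All 8 genes passed the filter on low counts. The genes fell into mirror groups, with Sgk2, Gnai1, Agxt and Serinc2 lowest in IF16 and highest in EOD, and Nat8, Clic3, Amer2 and Steap2 highest in IF16. Every one of the 8 genes had separate ranges of CPM in EOD and IF16. Against AL, 7 of the 8 had separate ranges in IF16, with Clic3 the exception, whereas only Sgk2 and Nat8 had separate ranges in EOD. Of all tested genes, 10.9% had separate ranges in EOD and IF16, 18.6% in EOD and AL and 5.78% in IF16 and AL. By the edgeR quasi-likelihood test at an adjusted p of 0.05, 8 of the 8 passed in EOD over IF16, 4 of the 8 in EOD over AL and 8 of the 8 in IF16 over AL, where 16.1%, 35.2% and 3.5% of all 13837 tested genes passed. The 8 split into 4 higher and 4 lower in EOD over IF16, 3 higher and 1 lower in EOD over AL, and 4 higher and 4 lower in IF16 over AL. Of all tested genes, 7.96% were higher and 8.15% lower in EOD over IF16, 17.6% higher and 17.6% lower in EOD over AL, and 1.4% higher and 2.1% lower in IF16 over AL. Per unit of gene length, Agxt was the most abundant at 243 FPKM in EOD, 135 FPKM in IF16 and 189 FPKM in AL, and Amer2 the least at 0.0783 FPKM in EOD, 0.255 FPKM in IF16 and 0.0746 FPKM in AL (means, n = 5 each).

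**Figure D1:**
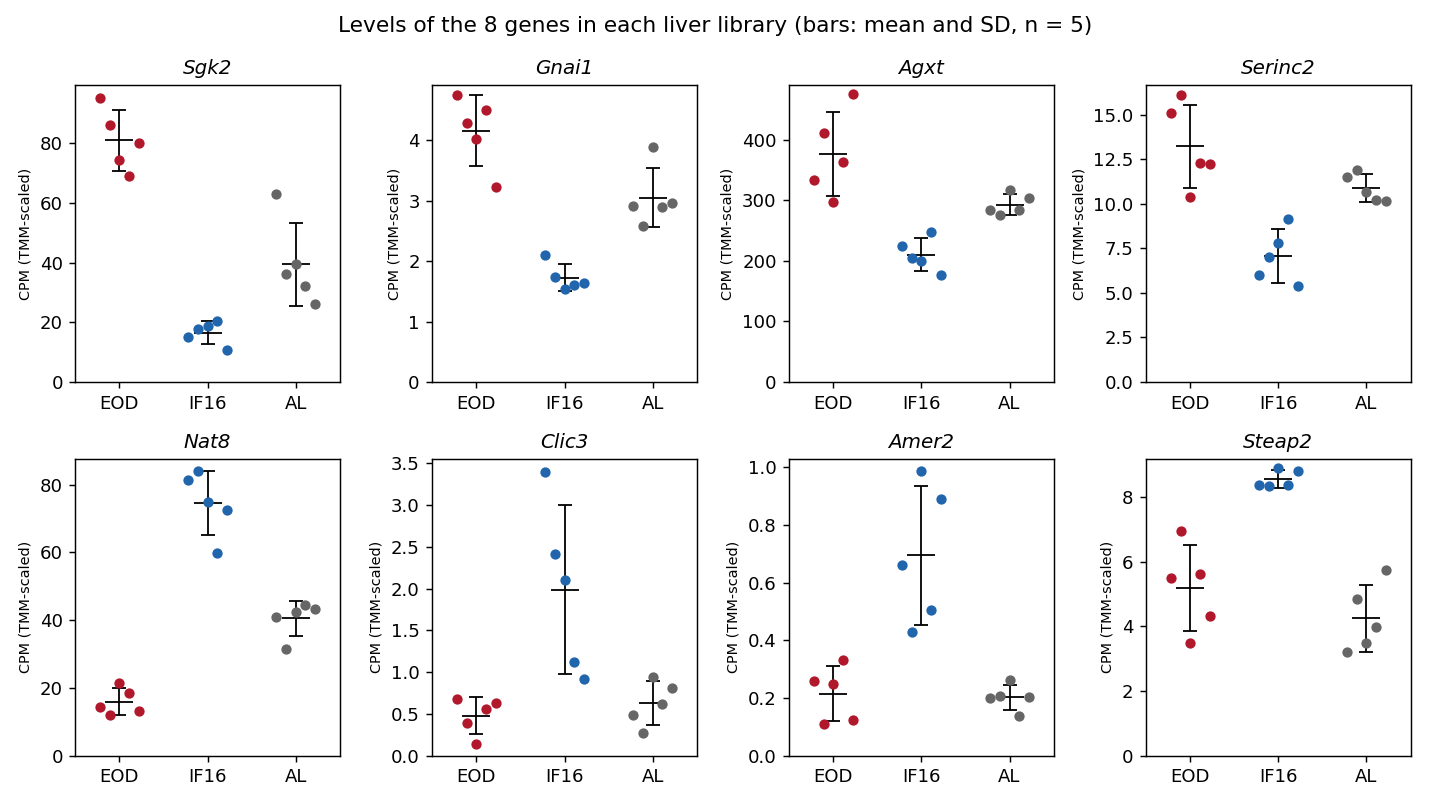
Each panel plots 1 gene, with CPM (TMM-scaled, linear axis from 0) on the vertical axis and the groups EOD, IF16 and AL from left to right; points are libraries and black bars are the mean and SD of 5 libraries. The upper row shows the genes that are lowest in IF16, the lower row those that are highest in IF16, and in all 8 panels the EOD and IF16 points occupy separate ranges.

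Sgk2 (ENSMUSG00000017868; mm10 chr2:162987330-163014127, plus strand) showed the widest separation of the regimens. It stood at 95.3, 86.2, 74.4, 68.9 and 80.2 CPM in the EOD libraries, at 15.1, 17.7, 18.8, 20.3 and 10.7 CPM in the IF16 libraries, and at 62.8, 36.1, 39.7, 32.2 and 26.1 CPM in the AL libraries. Every EOD library lay above every AL library, and every IF16 library lay below them, with AL replicate 1 the AL library nearest to EOD. The means were 81.0 ± 10.2 CPM in EOD, 16.5 ± 3.78 CPM in IF16 and 39.4 ± 14.0 CPM in AL (SD, n = 5 each). The order was EOD, AL, IF16 with no overlap between neighbours. The fitted log2 fold change was 2.29 (SE 0.21) for EOD over IF16, 1.04 (SE 0.20) for EOD over AL and -1.25 (SE 0.21) for IF16 over AL. Between the regimens this is a 4.90-fold difference. Leaving out AL replicate 1 moved the change against AL to 1.30 in EOD and to -1.02 in IF16. Within AL, Sgk2 was higher in replicates 1 to 3 than in replicates 4 and 5. Replicates 1 to 3 had the higher adipocyte marker sums, mostly Cfd, and replicates 4 and 5 the higher acute phase and neutrophil marker sums. These marker differences split the AL libraries in the same way and cannot be told apart. The part of these library differences in the Sgk2 values was not tested. Without AL replicates 4 and 5 the Sgk2 change against AL was 0.84 in EOD and -1.48 in IF16.

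Of the 12 tested SGK and AKT kinases, activators and substrates, 7 rose and 1 fell in EOD over AL, 66.7% against 35.2% of all genes. In IF16 over AL 1 of the 12 rose, 8.33% against 3.5% of all genes. None of the 12 passed as lower in IF16 than in AL, as did only 2.1% of all tested genes. The medians of the log2 fold changes of the 12 were 0.45 in EOD over AL and 0.17 in IF16 over AL, against -0.01 and -0.00 over all tested genes. Sgk1, the hormone- and stress-induced paralog, rose to 32.9 ± 6.58 CPM in EOD, against 13.5 ± 2.91 CPM in AL (SD, n = 5 each; edgeR adjusted p = 0.000213). In IF16 Sgk1 averaged 23.4 ± 6.83 CPM, and its rise over AL (adjusted p = 0.0406) was lost without any 1 of 10 libraries, which were AL replicates 1, 2, 4 and 5, IF16 replicates 2 to 5 and EOD replicates 2 and 3 (adjusted p 0.054 to 0.125). Sgk3, the endosomal paralog, rose in EOD to 8.53 ± 1.14 CPM, against 5.70 ± 0.689 CPM in AL (edgeR adjusted p = 0.00161). Pdpk1, which encodes the activating kinase PDK1, rose in EOD over AL by a log2 fold change of 0.50 (edgeR adjusted p = 0.00252).

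Ndrg1, whose product is phosphorylated by SGK kinases, had 4.47, 10.3, 6.01, 8.58 and 3.79 CPM in EOD, 2.85, 3.45, 3.35, 3.55 and 3.02 CPM in IF16 and 2.55, 1.83, 2.22, 1.69 and 1.52 CPM in AL. The 3 groups did not overlap, and Ndrg1 rose in EOD over IF16 (log2 fold change 1.03, SE 0.23, edgeR adjusted p = 0.00672) and over AL (1.75, SE 0.24, adjusted p = 4.8e-05). In this order Ndrg1 followed EOD, IF16, AL, and Sgk2 followed EOD, AL, IF16.

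Gnai1 (ENSMUSG00000057614; mm10 chr5:18265135-18360413, minus strand) repeated the Sgk2 order at a much lower level. It had 4.76, 4.30, 4.02, 4.51 and 3.23 CPM in EOD, 2.10, 1.74, 1.54, 1.60 and 1.65 CPM in IF16 and 2.92, 2.59, 3.88, 2.90 and 2.97 CPM in AL. All IF16 libraries were below all the others, and EOD overlapped AL through EOD replicate 5 and AL replicate 3. The means were 4.16 ± 0.589 CPM in EOD, 1.73 ± 0.222 CPM in IF16 and 3.05 ± 0.488 CPM in AL (SD, n = 5 each). The fitted log2 fold change was 1.27 (SE 0.16) for EOD over IF16, 0.45 (SE 0.15) for EOD over AL and -0.82 (SE 0.16) for IF16 over AL.

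Among the 12 tested G alpha subunits, 1 rose and 4 fell in EOD over AL, and 1 fell in IF16 over AL. These are 41.7% and 8.33%, against 35.2% and 3.5% of all genes. Of the closest paralogs, Gnai2 fell to 77.2 ± 5.17 CPM in EOD, against 102 ± 3.76 CPM in AL (edgeR adjusted p = 0.00128). Gnai3 averaged 70.7 ± 11.6 CPM in EOD, 59.8 ± 2.65 CPM in IF16 and 66.9 ± 5.40 CPM in AL with no comparison past the threshold. Gnat1, the alpha subunit best known from rod photoreceptors, had 7.15, 6.12, 3.70, 4.81 and 6.99 CPM in EOD, 25.8, 14.3, 10.4, 7.36 and 17.1 CPM in IF16 and 68.6, 52.9, 51.6, 45.7 and 60.3 CPM in AL. It fell in both regimens without overlap with AL (edgeR adjusted p = 1.91e-06 in EOD and 0.00142 in IF16) and was lower in EOD than in IF16 (log2 fold change -1.38, SE 0.28, adjusted p = 0.00401). Gna14, a subunit of the Gq class, fell in EOD to 1.19 ± 0.357 CPM, against 2.39 ± 0.448 CPM in IF16 and 2.92 ± 0.652 CPM in AL (edgeR adjusted p = 0.00548 against IF16 and 0.000291 against AL; pairs of p below keep this sequence). Of the 10 tested RGS proteins, which speed the hydrolysis of GTP on alpha subunits, 1 rose and 2 fell in EOD over AL. That is 30%, against 35.2% of all genes. Rgs16, a fasting-sensitive member, stood at 1.98 to 17.8 CPM in EOD, 37.1 to 150 CPM in IF16 and 12.7 to 67.5 CPM in AL, and was lower in EOD than in IF16 (log2 fold change -2.95, SE 0.62, edgeR adjusted p = 0.00703). None of the 6 tested adenylyl cyclases passed in any comparison by the edgeR test, with 3 at an unadjusted p under 0.05 in EOD over AL, 1 in EOD over IF16 and 0 in IF16 over AL. By the DESeq2 Wald test 2 passed in EOD over AL and 1 in EOD over IF16. By edgeR 2 passed in EOD over AL without EOD replicate 4, EOD replicate 5 or AL replicates 4 and 5 together, and 1 without AL replicate 5 or EOD replicate 3. In EOD over IF16, 1 passed without IF16 replicate 2 or EOD replicate 4.

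Agxt (ENSMUSG00000026272; mm10 chr1:93135240-93145421, plus strand) showed the same order with smaller changes. It had 334, 412, 297, 364 and 476 CPM in EOD, 224, 205, 199, 248 and 176 CPM in IF16 and 284, 275, 317, 284 and 304 CPM in AL. All IF16 libraries lay below all AL libraries, which varied little, and EOD overlapped AL through EOD replicate 3. The means were 376 ± 69.5 CPM in EOD, 211 ± 27.0 CPM in IF16 and 293 ± 17.1 CPM in AL (SD, n = 5 each). On the log2 scale the fitted fold change was 0.84 (SE 0.12) for EOD over IF16, 0.36 (SE 0.12) for EOD over AL and -0.48 (SE 0.12) for IF16 over AL.

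Of the 11 tested genes of glyoxylate and hydroxyproline metabolism, 2 rose and 5 fell in EOD over AL, 63.6% against 35.2% of all genes. Without EOD replicate 2 that total of 7 was 4. In IF16 over AL, where 3.5% of all genes passed, none passed by edgeR or DESeq2, with 2 at an unadjusted p under 0.05, and 1 passed without AL replicate 2. Grhpr, which reduces glyoxylate, rose in EOD to 256 ± 35.9 CPM, against 173 ± 18.9 CPM in IF16 and 182 ± 26.02 CPM in AL (SD, n = 5 each; edgeR adjusted p = 0.00567 and 0.00523). Ldha, which can oxidise glyoxylate to oxalate, rose in EOD to 1082 ± 209 CPM, against 547 ± 99.6 CPM in IF16 and 632 ± 162 CPM in AL (edgeR adjusted p = 0.00181 and 0.00351). Of the 18 tested genes of glycine, serine and alanine metabolism, 4 rose and 1 fell in EOD over AL, 27.8% against 35.2% of all genes. In IF16 over AL none passed by edgeR, with 3 at an unadjusted p under 0.05, and 1 passed by DESeq2 or without EOD replicate 5. Gldc, the decarboxylating subunit of the glycine cleavage system, had 151, 149, 111, 112 and 124 CPM in EOD, 63.3, 71.4, 59.4, 89.7 and 46.0 CPM in IF16 and 89.2, 50.2, 65.5, 62.1 and 64.5 CPM in AL. Every EOD library lay above all others (log2 fold change over IF16 0.97, SE 0.17, edgeR adjusted p = 0.00113). Gnmt, the glycine methyltransferase, rose in EOD over AL by 1.37 on the log2 scale (adjusted p = 0.000235). Shmt2, the mitochondrial serine hydroxymethyltransferase, fell by 0.55 (adjusted p = 0.000241).

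Serinc2 (ENSMUSG00000023232; mm10 chr4:130253495-130279205, minus strand) was the last of the genes lowest in IF16. It had 15.1, 16.1, 10.4, 12.3 and 12.2 CPM in EOD, 5.98, 7.02, 7.82, 9.18 and 5.37 CPM in IF16 and 11.5, 11.9, 10.7, 10.2 and 10.2 CPM in AL. The IF16 libraries were all below the rest, and EOD and AL shared part of their range through EOD replicate 3. The means were 13.2 ± 2.34 CPM in EOD, 7.07 ± 1.51 CPM in IF16 and 10.9 ± 0.776 CPM in AL (SD, n = 5 each). Serinc2 had a fitted log2 fold change of 0.91 (SE 0.15) for EOD over IF16, 0.28 (SE 0.15) for EOD over AL and -0.62 (SE 0.15) for IF16 over AL. Of the 3 tested SERINC paralogs, Serinc3 rose in EOD to 236 ± 18.1 CPM, against 160 ± 11.7 CPM in IF16 and 128 ± 22.8 CPM in AL (edgeR adjusted p = 0.00449 and 3.77e-05). Serinc1 averaged 175 ± 9.93 CPM in EOD, 172 ± 10.6 CPM in IF16 and 161 ± 13.5 CPM in AL. Serinc5 averaged 19.0 ± 2.01 CPM in EOD, 20.7 ± 1.22 CPM in IF16 and 21.2 ± 2.02 CPM in AL. Neither was past the threshold in any comparison. Of the 16 tested genes of phosphatidylserine and sphingolipid synthesis, 5 rose and 2 fell in EOD over AL and 1 rose in IF16 over AL. These are 43.8% and 6.25%, against 35.2% and 3.5% of all genes. The total of 7 in EOD over AL was 4 without AL replicate 5 or EOD replicate 3. Degs1, which makes ceramide from dihydroceramide, rose in EOD to 68.2 ± 9.59 CPM, against 41.9 ± 4.09 CPM in IF16 and 39.3 ± 5.70 CPM in AL (adjusted p over AL 0.000127).

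Nat8 (ENSMUSG00000030004; mm10 chr6:85830388-85832082, minus strand) was the 1 gene of the 8 with separate ranges in all 3 comparisons and a rise in IF16. It had 14.4, 12.1, 21.4, 18.6 and 13.3 CPM in EOD, 81.5, 84.1, 74.8, 60.0 and 72.4 CPM in IF16 and 40.9, 31.6, 42.5, 44.4 and 43.4 CPM in AL. The means were 16.0 ± 3.92 CPM in EOD, 74.6 ± 9.45 CPM in IF16 and 40.6 ± 5.20 CPM in AL (SD, n = 5 each), the reverse of the Sgk2 order. The fitted log2 fold change was -2.23 (SE 0.15) for EOD over IF16, -1.35 (SE 0.15) for EOD over AL and 0.88 (SE 0.15) for IF16 over AL. Markers of kidney tubule, another site of Nat8 expression, summed to at most 0.249 CPM in EOD, 0.481 CPM in IF16 and 1.17 CPM in AL, with Slc12a1 and Slc22a6 at 0 in every library.

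Nat8 lies in a cluster of related genes on the same strand of chromosome 6, and in EOD most of the cluster was low. Of the 6 tested Nat8-like genes, 5 fell and none rose in EOD over AL, 5 fell and none rose in EOD over IF16, and 1 fell in IF16 over AL. These are 83.3%, 83.3% and 16.7%, against 35.2%, 16.1% and 3.5% of all genes. The median log2 fold changes of the 6 were -1.93, -1.81 and 0.19. Cml5 (Nat8f5 in current annotation; chr6:85817221-85820972) had 1.79, 1.52, 2.49, 1.43 and 0.690 CPM in EOD, 16.4, 20.3, 18.3, 13.0 and 18.8 CPM in IF16 and 16.6, 17.3, 12.2, 13.2 and 12.6 CPM in AL. Every EOD library was far below the other 2 groups, whose ranges overlapped. The log2 fold change was -3.46 (SE 0.23, edgeR adjusted p = 9.45e-08) over IF16 and -3.19 (SE 0.23, adjusted p = 7.6e-08) over AL. For IF16 over AL the Cml5 change was 0.27 (SE 0.20, adjusted p = 0.507), where Nat8 itself stood 1.84-fold higher.

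Gm11128 (Nat8f6) fell with Cml5, at 0.148 ± 0.148 CPM in EOD, 1.14 ± 0.317 CPM in IF16 and 1.06 ± 0.273 CPM in AL (edgeR adjusted p = 0.000278 and 0.000134). Gm4477 (Nat8f7) was called lower in EOD on 0 to 2 counts per EOD library, 3 to 28 per IF16 library and 1 to 22 per AL library, so its fold change is not a measured size. 1700019G17Rik (Nat8f4) had 3.03 ± 0.485 CPM in EOD, 4.72 ± 1.08 CPM in IF16 and 6.08 ± 0.692 CPM in AL, lower in EOD than in both (adjusted p = 0.013 and 0.000194). The abundant neighbours had smaller fitted changes. Cml1 (Nat8f1) averaged 270 ± 46.1 CPM in EOD, 388 ± 53.2 CPM in IF16 and 296 ± 25.6 CPM in AL. It passed in EOD over IF16 alone (-0.52, SE 0.12, adjusted p = 0.00926). Cml2 (Nat8f2) averaged 700 ± 88.1 CPM in EOD, 672 ± 108 CPM in IF16 and 983 ± 139 CPM in AL. It passed against AL in EOD (adjusted p = 0.00725) and in IF16 (adjusted p = 0.0243). The EOD call of Cml2 was lost without AL replicates 4 and 5 (adjusted p = 0.0939), and its IF16 call was lost without any 1 of AL replicates 4 and 5 and IF16 replicates 3, 4 and 5 (adjusted p 0.0506 to 0.0728).

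The family is close in sequence, which limits what the counts of single copies mean. Of the 50-base stretches of the Nat8 transcript in the GENCODE M21 annotation, 5.68% occurred unchanged in another gene of the cluster, against 9.29% for Cml5, 68.0% for Gm11128 and 82.3% for Gm4477. Gm11128 (chr6:85808024-85820954) also overlaps Cml5 on the same strand in the deposited coordinates, so the counts of both genes are uncertain. Both are among the genes called lower in EOD, and these calls may not be separate.

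**Figure D2:**
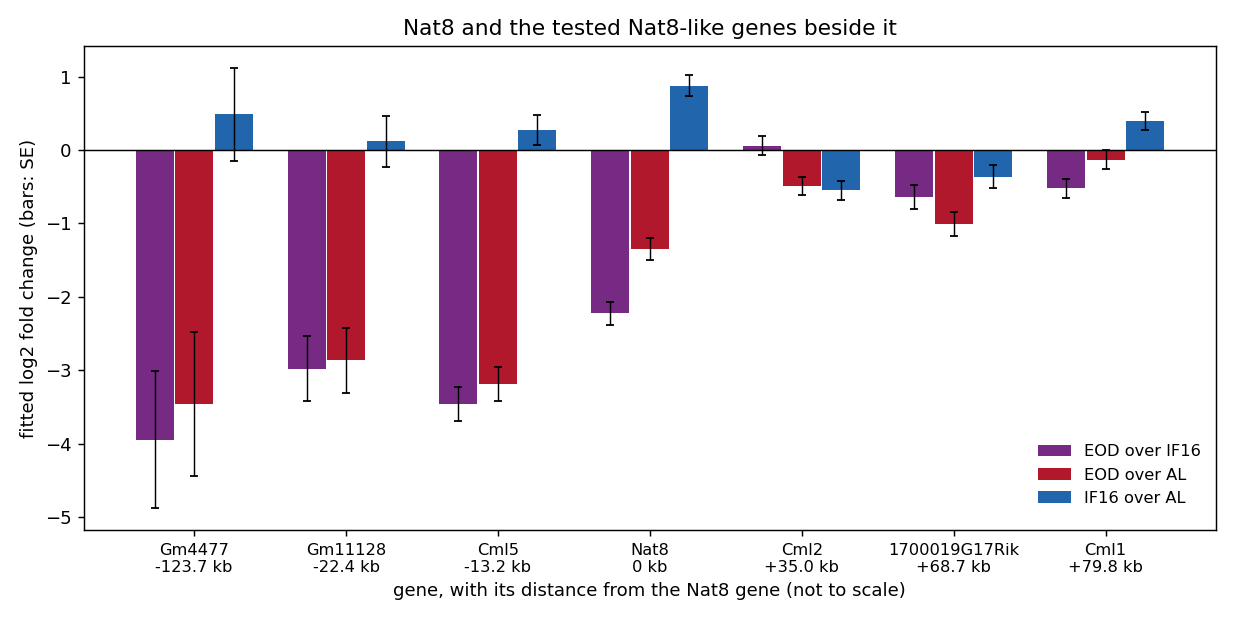
Bars give the fitted log2 fold change with its SE for Nat8 and the 6 tested Nat8-like genes, ordered along the chromosome with the distance of their deposited start from that of Nat8 below each name; purple is EOD over IF16, red EOD over AL and blue IF16 over AL. The purple and red bars of Cml5 reach -3.46 and -3.19 and the bars of Cml2 stay within 0.55 of 0, while the Gm4477 bars rest on 0 to 2 counts in each EOD library.

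The upstream sequences below, taken from RefSeq (GRCm38.p6), show the 250 bases before the start of Nat8, Cml5, Cml2 and Cml1. For Nat8, the one of its 2 RefSeq starts nearer to the deposited gene is shown. Cml5 fell most in EOD among the copies other than Gm4477, and Cml2 and Cml1 are the abundant copies with smaller changes. Capitals mark matches on either strand to CCAAT (its reverse is ATTGG), to the glucocorticoid receptor core ACANNNTGT or to the nuclear receptor element AGGTCA (its reverse is TGACCT). They lie on the minus strand at chr6:85832280-85832529 (Nat8), chr6:85820973-85821222 (Cml5), chr6:85869138-85869387 (Cml2) and chr6:85915633-85915882 (Cml1).
Nat8: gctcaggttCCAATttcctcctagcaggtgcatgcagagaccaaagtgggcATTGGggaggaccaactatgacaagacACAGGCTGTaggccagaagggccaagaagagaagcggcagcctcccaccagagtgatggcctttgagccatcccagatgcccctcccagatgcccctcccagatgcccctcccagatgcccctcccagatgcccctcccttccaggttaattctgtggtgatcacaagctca
Cml5: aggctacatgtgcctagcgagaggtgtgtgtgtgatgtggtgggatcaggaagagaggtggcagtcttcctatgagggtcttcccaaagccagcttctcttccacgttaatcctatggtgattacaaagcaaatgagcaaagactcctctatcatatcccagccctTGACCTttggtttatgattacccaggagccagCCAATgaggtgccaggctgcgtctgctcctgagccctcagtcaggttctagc
Cml2: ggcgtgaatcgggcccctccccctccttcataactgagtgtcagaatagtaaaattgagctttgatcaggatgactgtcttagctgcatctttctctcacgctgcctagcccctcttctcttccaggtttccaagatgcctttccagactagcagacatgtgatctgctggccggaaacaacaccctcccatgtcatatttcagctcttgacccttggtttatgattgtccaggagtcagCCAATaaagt
Cml1: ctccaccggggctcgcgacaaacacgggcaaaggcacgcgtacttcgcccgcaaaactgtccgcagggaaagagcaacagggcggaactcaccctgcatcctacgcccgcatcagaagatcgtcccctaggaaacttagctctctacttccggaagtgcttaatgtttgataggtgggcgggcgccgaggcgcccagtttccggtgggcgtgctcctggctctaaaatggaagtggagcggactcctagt
Nat8 and Cml2 were alike over 104 of 133 aligned bases (78.2%), Cml5 and Cml2 over 150 of 194 (77.3%) and Nat8 and Cml5 over 95 of 128 (74.2%). Cml1 was alike with Cml5 over 75 of 104 (72.1%), with Cml2 over 109 of 154 (70.8%) and with Nat8 over 43 of 64 (67.2%). These shares leave out the bases set against gaps. Of the whole 250 bases, the like bases made 41.6% for Nat8 and Cml2, 60% for Cml5 and Cml2 and 38% for Nat8 and Cml5. For Cml1 they made 30% with Cml5, 43.6% with Cml2 and 17.2% with Nat8. No unrelated sequences were aligned for comparison, so the shares do not measure relatedness. The CCAAT match stands at bases -52 to -48 from the RefSeq start in Cml5 and at -10 to -6 in Cml2. The deposited Cml2 gene reaches to chr6:85869158, past its RefSeq start, so the Cml2 match lies inside it. In Nat8, which alone of these 4 holds the glucocorticoid receptor core, the CCAAT matches stand farther upstream. The HNF4A word CAAAGTCCA was found in Nat8 past the start. Shares over all 32851 starts were counted in longer windows, which hold the 250 bases and run on past the start. In these, CCAAT occurred in 37.4%, AGGTCA in 16.3%, ACANNNTGT in 6.85% and CAAAGTCCA in 0.475%. A match is a run of letters and not a bound site.

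A further list joined enzymes of glutathione conjugate breakdown and of glutathione synthesis with the aminoacylases Acy1 and Acy3. Of its 15 tested genes, 4 rose and 4 fell in EOD over AL, 53.3% against 35.2% of all genes. Acy1 and Acy3 were among those that fell. In IF16 over AL 1 fell, Acy3, which is 6.67% against 3.5% of all genes. The first total of 8 was 4 without EOD replicate 3 and 5 without AL replicate 2 or AL replicate 5. Oplah, which recycles 5-oxoproline, rose in EOD to 86.9 ± 8.24 CPM, against 63.0 ± 6.87 CPM in IF16 and 57.6 ± 6.61 CPM in AL (SD, n = 5 each; edgeR adjusted p = 0.00682 and 0.000429). Acy1, an aminoacylase that removes acetyl groups, fell in EOD to 34.0 ± 6.15 CPM, against 45.3 ± 1.16 CPM in IF16 and 44.2 ± 4.43 CPM in AL (adjusted p = 0.016 and 0.0123).

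Clic3 (ENSMUSG00000015093; mm10 chr2:25456838-25458776, plus strand) was a low transcript that was high in part of the IF16 group. It had 0.676, 0.386, 0.142, 0.563 and 0.627 CPM in EOD, 3.39, 2.41, 2.10, 1.12 and 0.918 CPM in IF16 and 0.487, 0.276, 0.947, 0.622 and 0.810 CPM in AL, from 4 to 113 counts a library. IF16 replicates 1, 2 and 3 lay above 2 CPM and IF16 replicate 5 lay inside the AL range, while EOD and AL overlapped over most of their ranges. The means were 0.479 ± 0.218 CPM in EOD, 1.99 ± 1.01 CPM in IF16 and 0.628 ± 0.264 CPM in AL (SD, n = 5 each). Its fitted log2 fold change was -2.03 (SE 0.41) for EOD over IF16, -0.37 (SE 0.43) for EOD over AL and 1.65 (SE 0.40) for IF16 over AL. The EOD over AL value of Clic3 was -0.15 without EOD replicate 3, -0.18 without AL replicate 3, -0.21 without AL replicates 4 and 5 and -0.56 without AL replicate 2. BC029214 lies across Clic3 on the opposite strand and averaged 16.96 ± 2.39 CPM in EOD, 23.5 ± 3.54 CPM in IF16 and 20.6 ± 0.990 CPM in AL. Like Clic3, BC029214 was lower in EOD than in IF16 (log2 fold change -0.47, SE 0.11, edgeR adjusted p = 0.0097). The strand setting of the counting is not stated, so reads of the 2 genes may be mixed and the Clic3 values are uncertain.

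Of the 3 tested CLIC relatives, Clic5, a partner of the actin cortex, fell in EOD to 0.533 ± 0.172 CPM, against 1.62 ± 0.575 CPM in IF16 and 2.43 ± 0.686 CPM in AL (SD, n = 5 each; edgeR adjusted p = 0.0017 and 3.86e-05). Clic4, a member known from endothelium, rose in EOD over AL to 46.3 ± 5.37 CPM, against 30.0 ± 3.98 CPM (adjusted p = 0.000286). It averaged 39.2 ± 2.33 CPM in IF16 (adjusted p over AL 0.0528), alongside the higher endothelial markers of both fasting groups. The part of endothelial cells in the Clic4 values was not tested. Clic1 averaged 14.4 ± 2.46 CPM in EOD, 14.6 ± 2.34 CPM in IF16 and 14.4 ± 1.64 CPM in AL.

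Amer2 (ENSMUSG00000021986; mm10 chr14:60378286-60381003, plus strand) was the rarest of the 8, with 4 to 33 counts a library. It had 0.260, 0.110, 0.249, 0.331 and 0.125 CPM in EOD, 0.661, 0.427, 0.986, 0.507 and 0.891 CPM in IF16 and 0.2004, 0.207, 0.261, 0.138 and 0.203 CPM in AL. All IF16 libraries were above all others, and the EOD range enclosed the AL range. The means were 0.215 ± 0.0945 CPM in EOD, 0.694 ± 0.241 CPM in IF16 and 0.202 ± 0.0436 CPM in AL (SD, n = 5 each). Its fitted log2 fold change was -1.68 (SE 0.34) for EOD over IF16, 0.08 (SE 0.39) for EOD over AL and 1.76 (SE 0.35) for IF16 over AL. The EOD over AL value took either sign, from -0.12 to 0.25, as single libraries were left out. The counted model spans 2718 bases of the 14939 that GENCODE M21 gives the gene, so reads elsewhere in the gene are not in these counts.

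Amer1, the better expressed paralog, averaged 3.12 ± 0.672 CPM in EOD, 3.26 ± 0.605 CPM in IF16 and 3.40 ± 0.972 CPM in AL and passed in no comparison. Of the 9 tested genes of the AMER family and the beta-catenin destruction complex, 1 rose and 2 fell in EOD over AL. That is 33.3%, against 35.2% of all genes, and without EOD replicate 5 the total was 5. None passed by edgeR or DESeq2 in IF16 over AL, with 1 at an unadjusted p under 0.05. Of the 21 tested Wnt receptors and effectors, 2 rose and 2 fell in EOD over AL, 19% against 35.2% of all genes. In IF16 over AL none passed by edgeR, with 2 at an unadjusted p under 0.05, while 2 passed by DESeq2 or without AL replicate 2 and 1 without AL replicate 3. Wnt2, a ligand made by liver endothelium, rose in EOD to 4.45 ± 0.851 CPM, against 2.12 ± 0.834 CPM in AL (SD, n = 5 each; edgeR adjusted p = 0.00197), alongside the higher endothelial markers, whose part was not tested.

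Hepatic beta-catenin target genes split in EOD. Of the 11 tested, 1 rose and 4 fell in EOD over AL, 1 rose and 4 fell in EOD over IF16 and 1 fell in IF16 over AL. These are 45.5%, 45.5% and 9.09%, against 35.2%, 16.1% and 3.5% of all genes. The count in EOD over IF16 was 3 without any 1 of 8 libraries (IF16 replicates 1 to 5 or EOD replicate 1, 3 or 4). Cyp1a2, a pericentral cytochrome, fell in EOD to 352 ± 44.2 CPM, against 818 ± 57.5 CPM in IF16 and 767 ± 143 CPM in AL (edgeR adjusted p = 1.43e-05 and 6.48e-06). Lect2, a secreted target of beta-catenin, fell in EOD to 85.2 ± 17.5 CPM, against 169 ± 8.83 CPM in IF16 and 157 ± 23.5 CPM in AL (adjusted p = 0.00012 and 8.89e-05). Cyp2e1, a cytochrome raised by fasting, rose in EOD over IF16 by a log2 fold change of 0.57 (adjusted p = 0.00334).

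Steap2 (ENSMUSG00000015653; mm10 chr5:5664831-5694578, minus strand) was the steadiest of the 8 genes within IF16. It had 5.49, 6.97, 3.48, 5.63 and 4.33 CPM in EOD, 8.38, 8.34, 8.91, 8.38 and 8.80 CPM in IF16 and 3.21, 4.83, 3.49, 3.97 and 5.74 CPM in AL. The IF16 libraries differed from each other by under 1 CPM and lay above every other library, and EOD and AL overlapped across most of their ranges. The means were 5.18 ± 1.33 CPM in EOD, 8.56 ± 0.272 CPM in IF16 and 4.25 ± 1.04 CPM in AL (SD, n = 5 each). Its fitted log2 fold change was -0.72 (SE 0.18) for EOD over IF16, 0.29 (SE 0.18) for EOD over AL and 1.01 (SE 0.18) for IF16 over AL. The EOD over AL value of Steap2 was 0.16 without EOD replicate 2 and 0.46 without AL replicates 4 and 5.

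Among the relatives of Steap2, Steap3, which reduces endosomal iron, averaged 17.8 ± 2.40 CPM in EOD, 17.6 ± 2.46 CPM in IF16 and 19.3 ± 2.81 CPM in AL and passed in no comparison. Steap4, an inflammation-responsive member, ranged from 39.5 to 61.8 CPM in EOD, from 30.1 to 58.8 CPM in IF16 and from 33.4 to 490 CPM in AL, where AL replicates 4 and 5 held 490 and 251 CPM. Its lower level in EOD than in AL (log2 fold change -1.82, edgeR adjusted p = 0.0368) turned to 0.10 (adjusted p = 0.755) without those 2 libraries. The call was also lost without either of them alone (adjusted p = 0.132 and 0.0746) or without any 1 EOD library (0.056 to 0.0758). Of the 17 tested genes of iron and copper transport, 4 rose and 1 fell in EOD over AL, 29.4% against 35.2% of all genes. In IF16 over AL none passed by edgeR or DESeq2, with 3 at an unadjusted p under 0.05. The EOD over AL count was 3 without AL replicate 2, EOD replicate 3 or EOD replicate 4 and 9 without AL replicates 4 and 5. Slc39a8, a metal importer, rose in EOD to 26.6 ± 3.41 CPM, against 17.2 ± 1.94 CPM in IF16 and 15.4 ± 2.60 CPM in AL (SD, n = 5 each; adjusted p = 0.00318 and 0.000189).

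**Figure D3:**
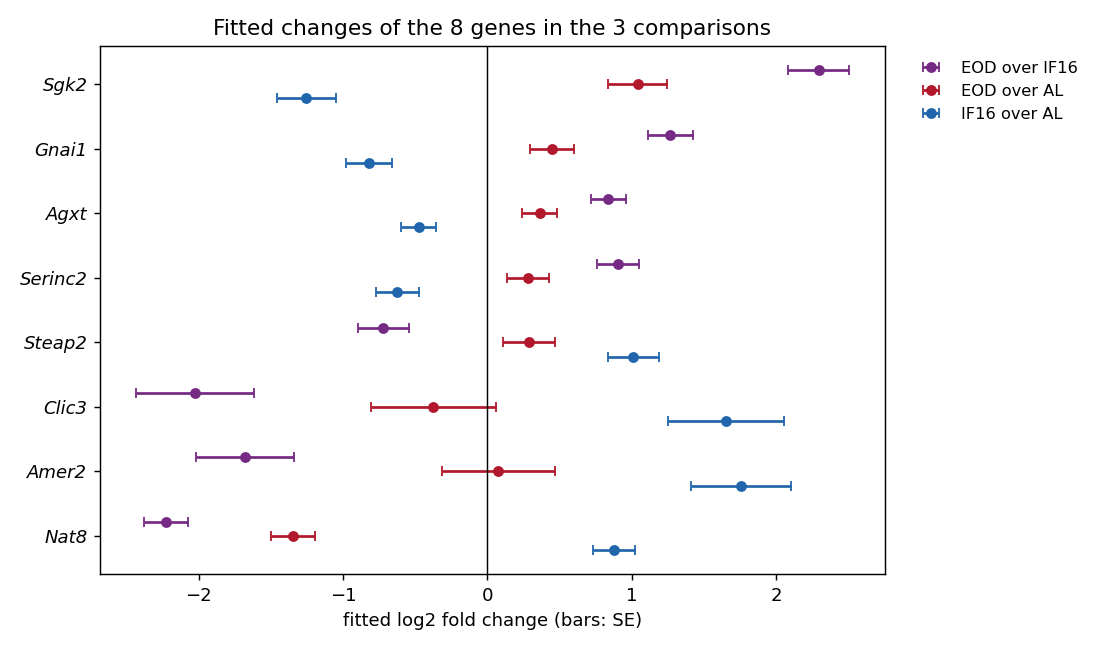
Fitted log2 fold changes (points) with their SE (bars) for the 8 genes, in EOD over IF16 (purple), EOD over AL (red) and IF16 over AL (blue); the comparisons share groups. For Sgk2, Gnai1, Agxt and Serinc2 the blue point is below 0 and the red above it, for Nat8 the signs are turned round, and for Clic3 and Amer2 the red bar spans 0.

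Over all the pathway lists, 179 of 205 relatives of the 8 genes were tested. In EOD over AL, 35 rose and 36 fell, 39.7% of those tested, and in EOD over IF16, 14 rose and 23 fell, 20.7%. In IF16 over AL, 2 rose and 4 fell, 3.35%. All 3 shares were close to those of all genes, which were 35.2%, 16.1% and 3.5%. The 6 relatives that passed in IF16 over AL were Sgk1, Kdsr, Cml2, Acy3, Gnat1 and Oat, of which Gnat1 alone kept its call with every library left out in turn. Kdsr lost its call without any 1 of AL replicates 3 to 5 and IF16 replicates 2 to 5. Acy3 lost it without any 1 of AL replicates 1, 3, 4 and 5, IF16 replicates 2 to 5 and EOD replicate 1. The list that holds Oat had no call without any 1 of AL replicates 1 and 3 and IF16 replicates 3 and 5. The comparisons with AL share the AL libraries and are not independent of each other.

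**Figure D4:**
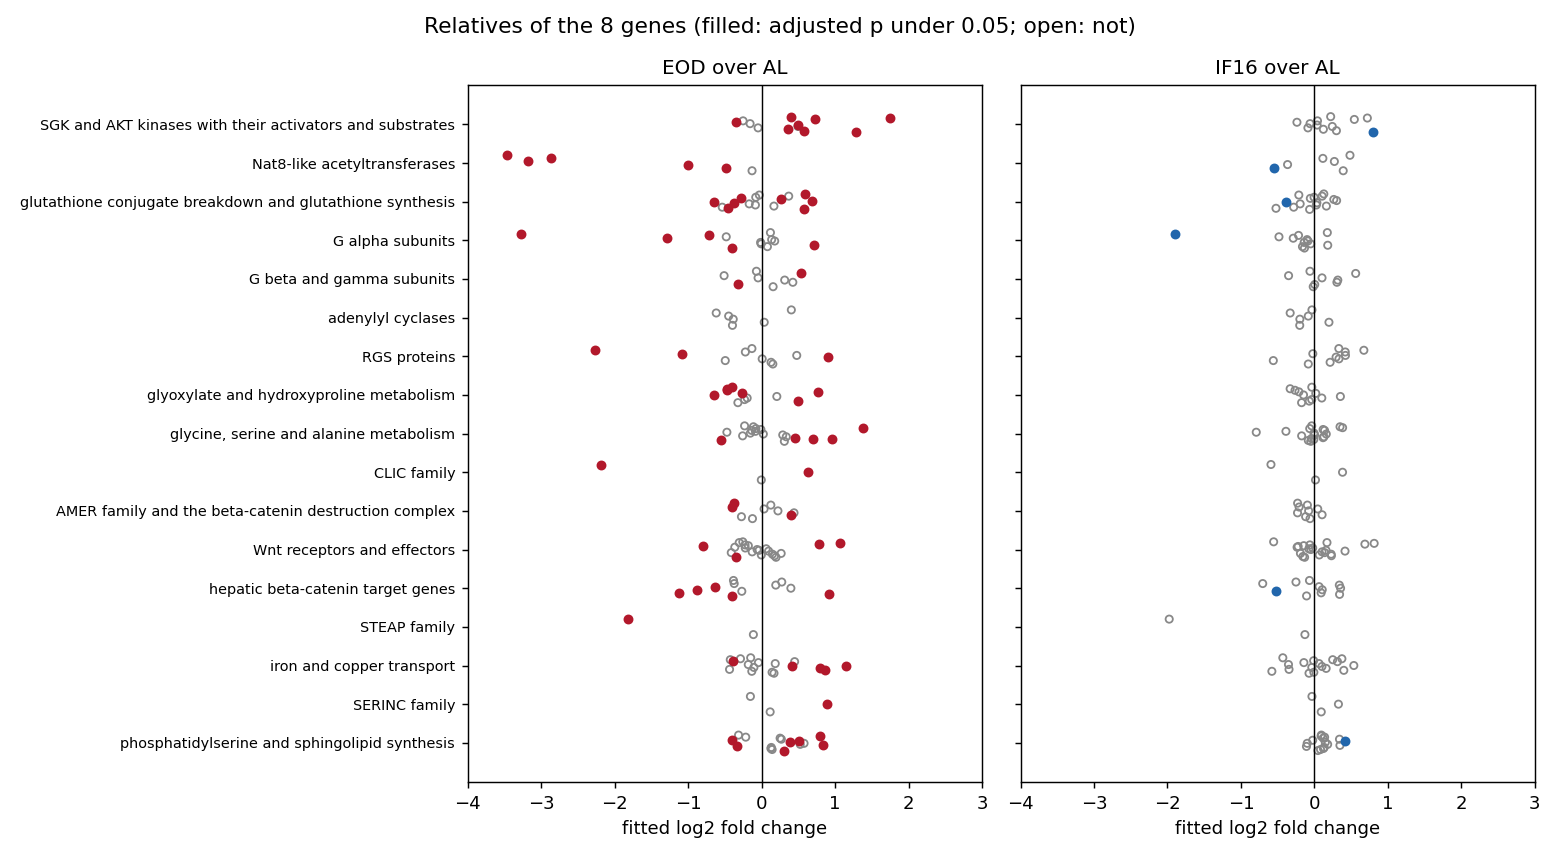
Each point is 1 tested relative, placed by its fitted log2 fold change (horizontal axis) in its pathway list (rows), for EOD over AL on the left and IF16 over AL on the right; filled points have an edgeR adjusted p under 0.05. Filled points number 71 on the left and 6 on the right, and the 3 leftmost of the Nat8-like row on the left are Gm4477, Cml5 and Gm11128.

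Across all 15 libraries, the genes with the pattern most like each of the 8 were found by the correlation of log2 CPM among 10753 protein-coding genes, given as a description because the libraries fall into groups. Sgk2 was most like Pop7, Ccni and Serinc2 (Pearson r 0.93, 0.92 and 0.91), and Sgk2 was among the 3 genes most like Gnai1, Agxt and Serinc2. The choice of these 4 genes for 1 pattern builds such likeness in. On deviations from the group means, r with Sgk2 was 0.01 for Gnai1, 0.22 for Agxt and 0.66 for Serinc2 over the same 15 libraries. Hmgn2 and Bdh2 were among the 3 genes most like Nat8 (r 0.93 for both). Amer2 was most like Ppp1r1b, a phosphatase inhibitor subunit, at 7.08 CPM in EOD, 15.002 CPM in IF16 and 7.19 CPM in AL (r 0.88), then Lingo4 and Gsta4 (r 0.87 and 0.86). Clic3 was most like Kalrn (r 0.88), then Disp2 and Vps13b (0.80 and 0.79), and Steap2 was most like Parp16 (r 0.83), then Slc3a2 and Cep44 (both 0.79). Gnai1 also resembled Urgcp and Lima1 (r 0.89 and 0.86), Agxt resembled Lrrfip1 and Fam134b (r 0.90 and 0.86), and Serinc2 resembled Map2k5 and Lace1 (r 0.92 and 0.87).

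The nearest tested genes on either side of the 8 made 16 flanking genes, of which 3 (18.8%) passed in EOD over IF16, 7 (43.8%) in EOD over AL and 1 (6.25%) in IF16 over AL, against 16.1%, 35.2% and 3.5% of all genes. The call in IF16 over AL is that of Cml2, and Steap4 is among those in EOD over AL, and both were lost without single libraries as given above. Ift52, which lies 3226 bases from Sgk2, changed by 0.07 on the log2 scale in EOD over IF16 (SE 0.10, edgeR adjusted p = 0.67), where Sgk2 changed by 2.29. RefSeq start windows were matched for 7 of the 8 genes, all but Sgk2. Clic3 held the glucocorticoid receptor core, Amer2 held CCAAT, and Steap2 held CCAAT and AGGTCA. Of all windows, 6.85% hold that core, 37.4% CCAAT and 16.3% AGGTCA. Among Gnai1, Agxt and Serinc2 the searched words had a single match, the E-box CACGTG of Gnai1. Clock and related factors are known to bind this word, which 7.15% of all windows hold. The 250 bases before the Gnai1 start (minus strand, chr5:18360414-18360663) are given with the E-box in capitals.
Gnai1: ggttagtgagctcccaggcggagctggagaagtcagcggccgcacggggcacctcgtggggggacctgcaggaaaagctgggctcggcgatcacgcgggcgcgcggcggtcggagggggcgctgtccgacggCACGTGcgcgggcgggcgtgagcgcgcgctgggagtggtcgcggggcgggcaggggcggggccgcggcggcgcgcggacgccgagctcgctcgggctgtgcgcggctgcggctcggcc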

How the data were processed

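Per the labels' protocols, poly-T beads drew out the messenger RNA, and the NEBNext Ultra kit was used for the libraries. The authors deposited raw read counts per Ensembl gene with 1 column per library, and the submitters' processing notes name STAR 2.5, HTSeq 0.6.1, DESeq2 and mm10. The authors also deposited FPKM, which are the counts scaled by gene length and library total to within a relative difference of 4.94e-12 in every cell. How strand was treated in counting is not stated.

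The counts went into edgeR 4.0.16 (R 4.3.3). After filterByExpr (minimum count 10) 13837 genes remained, TMM gave the library factors, 1 model of 3 group means covered the 15 libraries, and groups were compared by the robust quasi-likelihood test with Benjamini-Hochberg adjustment over all tested genes. An SE is the absolute log2 fold change over the root of its F statistic. Of 30 pairs of libraries within groups none was a duplicate (chi-square per degree of freedom 23.1 to 201). The 8 genes and the lists of relatives were chosen with earlier results of these data known. From each list up to 4 genes with an adjusted p under 0.05 in any comparison were eligible to be named, by smallest p, besides the closest paralogs. Alternatives were DESeq2 1.42.0, other scalings and filters, limma 3.58.1 on log2 FPKM with a pseudocount of 1 or 0.1, a replicate block and left-out libraries. Promoter words were searched on both strands of RefSeq windows that run from 250 bases before each start. Of the genes most like each of the 8, 1 is not reported here.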

Additional observations from a re-analysis of the deposited data

Results flagged for a closer look

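Of the 24 groups of the 8 genes, 1 held a library far from the other 4 by Dixon's criterion: Nat8 in AL replicate 2 stood at a log2 CPM of 4.98, or 31.6 CPM, against 40.9 to 44.4 CPM in the other AL libraries. Without it the Nat8 change in IF16 over AL was 0.80, against 0.88 with all libraries. Among 207 groups of the 8 genes and their named relatives, 11 held such a library, where chance gives about 5%. The others are given with the log2 CPM of the library that stood apart. In AL replicate 2 this held for Gnb2 (7.19), Grhpr (7.10), Serinc3 (6.48), Degs1 (4.89) and Serinc1 (7.10). In AL replicate 5 this held for Gclc (7.36). In EOD replicate 5 this held for Got2 (9.09) and Degs1 (5.70). In IF16 replicate 4 this held for Lgr5 (2.32) and Sptssa (5.06).

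Most named relatives were picked because they passed in some comparison, so the number of them listed here follows from the choice. Of all 179 tested relatives, 20.7% passed in EOD over IF16, against 16.1% of all genes. Besides the 8 genes, 32 of their named relatives differed between EOD and IF16 by the edgeR test of that difference at an adjusted p of 0.05. 12 were higher in EOD, with the log2 fold change of EOD over IF16 in brackets: Ndrg1 (1.03), Gnmt (0.99), Ldha (0.98), Gldc (0.97), Degs1 (0.70), Slc39a8 (0.63), Cyp2e1 (0.57), Grhpr (0.57), Serinc3 (0.56), Oplah (0.46), Pdpk1 (0.46) and Slc40a1 (0.46). 20 were lower in EOD: Gm4477 (-3.95), Cml5 (-3.46), Gm11128 (-2.98), Rgs16 (-2.95), Clic5 (-1.60), Gnat1 (-1.38), Cyp1a2 (-1.22), Rgs12 (-1.07), Gna14 (-1.01), Lect2 (-0.99), 1700019G17Rik (-0.64), Cml1 (-0.52), Shmt2 (-0.47), Gcat (-0.46), Acy1 (-0.41), Cers2 (-0.38), Got2 (-0.36), Gnb2 (-0.33), Glul (-0.30) and Gnai2 (-0.26). Gnai2, Gnb2 and Glul lost this call without any 1 of 11, 11 and 14 libraries. Cers2 lost it without IF16 replicate 1, IF16 replicate 2 or EOD replicate 4, Slc40a1 without IF16 replicate 5 or EOD replicate 2, and Got2 without IF16 replicate 4. The Gm4477 value rests on 0 to 2 counts in each EOD library.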

How the results depend on the processing

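The log2 fold changes of the 8 genes kept their sign in every count-based alternative, with the exception of Amer2 in EOD over AL, which lies near 0. They moved beyond 1 SD only with limma on log2(FPKM + 1), whose pseudocount narrows low genes (Gnai1, Clic3, Steap2 and Amer2). In IF16 over AL the number of genes past the threshold was 484 with edgeR, 936 with the DESeq2 Wald test, 277 with limma on log2(FPKM + 1) with no minimum, and 241 (without IF16 replicate 3) to 619 (without EOD replicate 5) with 1 library left out. For the relatives in IF16 over AL it was 6 with edgeR, 15 with DESeq2, 3 with no low count filter, 2 without AL replicates 4 and 5, 1 with limma and no minimum, and 1 (without IF16 replicate 3) to 9 (without AL replicate 2) with 1 library left out. In EOD over IF16 the count of all genes was 2229, and 1418 (without IF16 replicate 5) to 3383 (without EOD replicate 5) with 1 library left out. The cause of these shifts was not tested. Steap4 in EOD over AL turned to a log2 fold change of 0.10 without AL replicates 4 and 5. Of 89 calls of named relatives, 73 held with every library left out in turn and 66 in every alternative. Apart from the closest paralogs, these relatives were named by smallest p. The numbers therefore lean towards strong calls and do not measure the stability of all relatives.

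Replicate numbers did not pair the libraries: same-numbered libraries of different groups had correlations of their deviations from -0.13 to 0.22 over 15 pairs, 5 of them over 0.1, and the own number matched best in 3 of 15. With the number as a replicate block, 2226 genes passed in EOD over IF16, 4809 in EOD over AL and 492 in IF16 over AL. Clic3 (4 to 113 counts) and Amer2 (4 to 33 counts) are limited by depth.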
